A study of Mus musculus with 6 samples.

Results

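The genes described here encode histone deacetylases, the co-repressor proteins that carry them to chromatin, and ATP-dependent chromatin remodelers. They were the 60 of 23621 rows of the deposited gene table whose symbols belong to the Hdac, Sirt, Ncor, Sin3, Rcor, Ctbp, Mta, Mbd, Chd or Smarc families. Of these rows, 58 were genes sorted into 8 groups by role, and 2 were the pseudogenes Smarca5-ps and Smarce1-ps1. RNA was sequenced from the cortex of newborn mice (postnatal day 0), with 3 wild-type libraries and 3 libraries labelled Tle4-/- null mutant. All 6 libraries came from mice called littermates, whose background mixed the strains C57BL/6J, 129S6 and CD1. The labels do not say how the null allele was made, which litter a library came from, or whether a library was 1 animal or a pool. The p-values therefore measure the spread between these samples.

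Groucho/TLE proteins such as Tle4 do not bind DNA themselves. Transcription factors recruit them, and they lower transcription of the bound gene, in part by bringing histone deacetylases, enzymes that remove acetyl groups from histone tails. The same deacetylases also sit in separate repressor assemblies (NuRD, SIN3, CoREST and NCoR), while remodelers of the CHD, BAF and ISWI kinds use ATP to slide, evict or space nucleosomes. In the cortex, several subunits of these assemblies exist in a form typical of progenitors and a form typical of neurons.

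Tle4 was read first, as a check of the labels. Its level in CPM (counts scaled to library size, with TMM factors between libraries) was 198, 142 and 166 in wild-type replicates 1 to 3 and 69.3, 86.8 and 86.8 in the mutants. The genotypes did not overlap, and the log2 fold change of mutant over wild type was -1.06 (SE 0.14, edgeR adjusted p = 0.0377). That adjusted p lay between 0.0784 and 0.162 when any library other than wild-type replicate 2 was left out. With all 6 libraries it was 0.0646 in limma-voom, 0.0512 in limma on log2 FPKM and 0.207 with a replicate block, so the call did not hold in these fits. The adjusted p of Tle4 stayed under 0.05 with DESeq2 size factors, with either other filter, and without sex-linked or mitochondrial genes. The DESeq2 Wald test also kept the call, with a lower adjusted p than any of these other fits. Library totals ran from 18617408 to 21632607 counts. Markers of cortical neurons summed to 679 to 782 FPKM (counts scaled to gene length and library size) in the wild type and 694 to 765 in the mutants, and no listed marker of this set was at 0. Proliferation markers summed to 30.4 to 34.7 and 30.9 to 36.2 FPKM. Radial glia markers summed to 218 to 372 and 301 to 388 FPKM, with 8 of 9 log2 fold changes above 0, a median of 0.25 and 2 genes without overlap. Interneuron markers summed to 149 to 182 and 126 to 174 FPKM, with 8 of 9 log2 fold changes below 0. Of these 9 genes, 3 had an unadjusted edgeR p under 0.05 and 3 were without overlap. Over all genes tested, 51.3% had a log2 fold change below 0. An unadjusted edgeR p under 0.05 was found for 3.45% of all genes, and 7.93% were without overlap. Striatal markers summed to 37.7 to 50.5 and 26.3 to 37.1 FPKM, with 9 of 10 log2 fold changes below 0 and a median of -0.85. Of these 10 genes, 4 had an unadjusted edgeR p under 0.05 and 4 were without overlap. At an edgeR adjusted p under 0.05, 1 of the 10 was lower in the mutant (0.0145), beside 0.111% of all genes in either direction. Meningeal markers summed to 14.2 to 96.1 and 37.9 to 73.3 FPKM, with the lowest in wild-type replicate 1. Choroid plexus markers summed to at most 2.59 FPKM except in mutant replicate 3, at 78.2. The RNA Xist, made from the inactive X, was counted 11 to 37 times per wild-type library and 66194 to 79080 times per mutant library, while counts of the Y-linked Ddx3y were 1463 in wild-type replicate 1, 1891 in replicate 2 and at most 2 in every other library. Wild-type replicate 3 thus had few counts of either marker, and sex and genotype cannot be told apart. What these differences contribute to any value below was not tested. In bulk tissue, fewer cells of a type and less RNA per cell cannot be told apart either.

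None of the 58 genes passed the test between genotypes at an adjusted p of 0.05 (edgeR quasi-likelihood test, Benjamini-Hochberg adjustment over 16274 tested genes). All 58 passed the filter on low counts, and the smallest adjusted p was 0.9996. Over all genes tested, 18 were called, or 0.111%, 8 higher and 10 lower in the mutant. At an unadjusted p under 0.05 there were 3 of the 58 (5.17%), Ctbp2, Sirt1 and Sirt5, beside 3.45% of all genes. The genotypes did not overlap for 7 of the 58 (12.1%), beside 7.93% of all genes. Of these 7, 3 were higher in the mutant, as were 4.18% of all genes, and 4 lower, as were 3.75% of all genes. The log2 fold change was above 0 for 24 genes and below 0 for 34, beside 51.3% of all genes below 0, with a median of -0.03 over the 58 and -0.01 over all genes. In the authors' deposited table none of the 60 rows had a p under 0.05, beside 2.73% of all rows, or an adjusted p under 0.05, beside 0.288% of all rows.

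The intervals show which sizes of difference these libraries leave room for. The 95% interval of every one of the 58 genes lay within a log2 fold change of 1 in either direction, that is, within a 2-fold difference. For 46 genes it lay within 0.5, and the farthest bound was 0.90, for Rcor1. The median absolute log2 fold change was 0.09 for the 58 genes and 0.12 for all genes tested. Among the 10673 tested genes in the same range of mean level (8.22 to 789 CPM) it was also 0.09. The median standard deviation within a genotype, on the log2 CPM scale, was 0.14 for the 58 genes and 0.16 for tested genes of the same range.

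**Figure D1:**
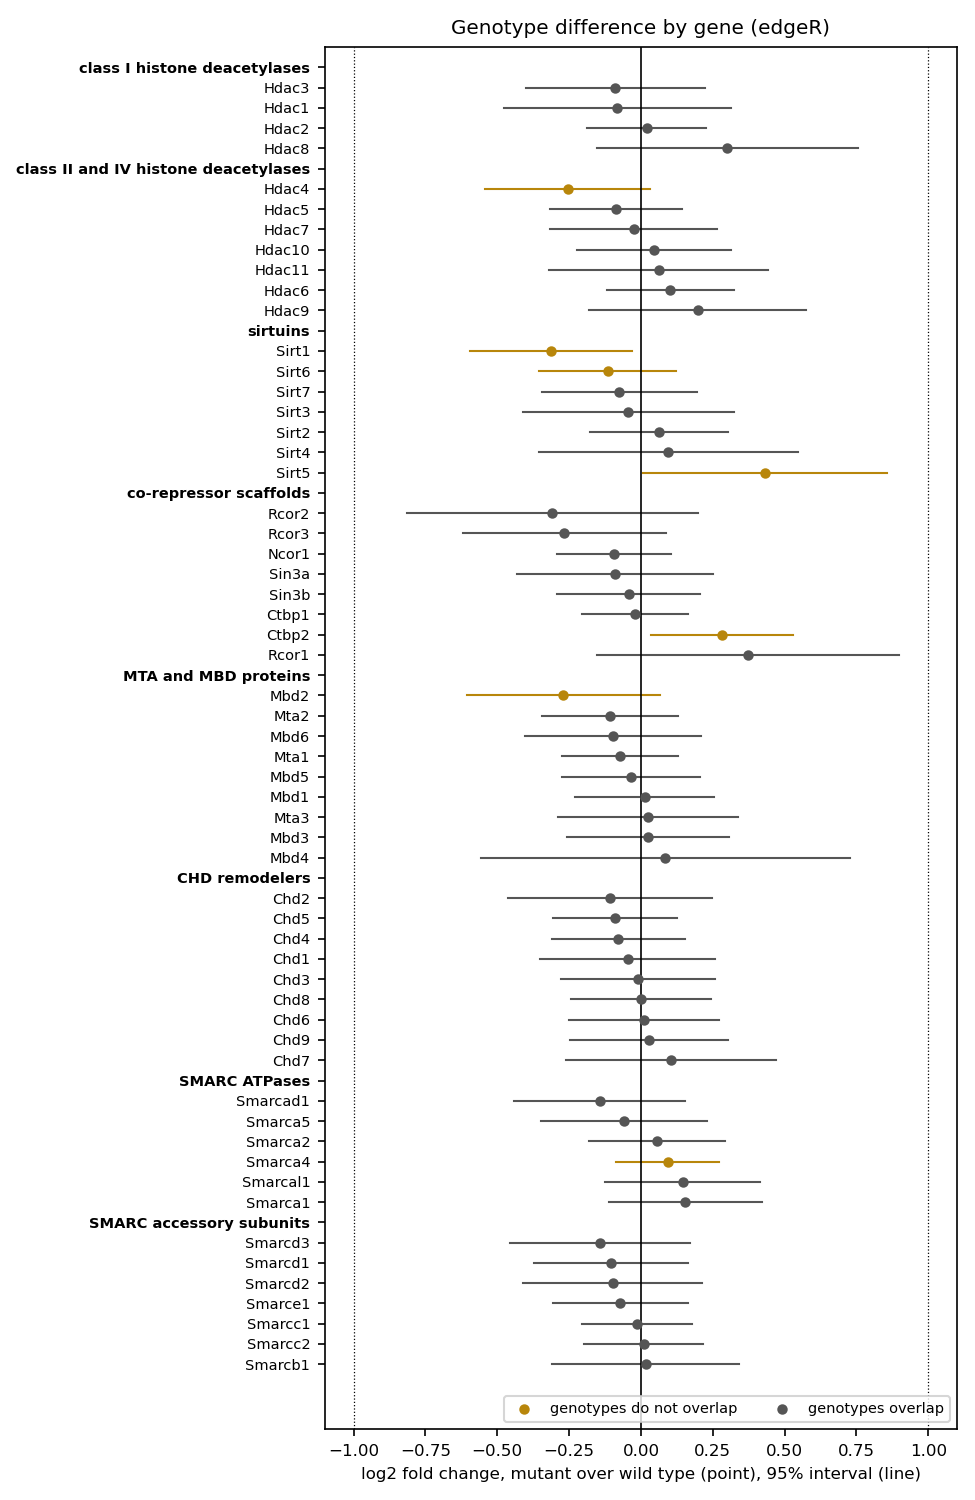
Log2 fold change of mutant over wild type (x axis) for all but 1 of the 58 genes, grouped by role, with points for the edgeR estimate, lines for its 95% interval and dotted lines at a 2-fold difference. Estimates run from -0.31 (Sirt1) to 0.43 (Sirt5), no interval reaches a dotted line, and the 7 genes whose genotypes do not overlap are in gold.

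These genes were expressed at higher levels than most of the table. The median over the 58 genes of the wild-type mean was 8.77 FPKM, beside 1.29 FPKM for all rows. Above 10 FPKM stood 24 of the 58, and below 2 FPKM stood 7. The highest wild-type means were 124 ± 7.98 FPKM for Smarcc2, 82.1 ± 8.54 for Smarcd1, 75.9 ± 11.1 for Chd3 and 46.8 ± 0.773 for Hdac2 (mean ± SD, n = 3). The lowest among the 58 by this measure were 1.06 FPKM for Mbd4, 1.32 for Hdac8 and 1.64 for Rcor3. Within this order of 60 rows, 48 of 59 neighbouring pairs had wild-type ranges that overlapped, so many neighbouring levels lie close together. The ranges were not compared library by library. A pair can thus overlap and still keep its order in every wild-type library, as Sirt7 (3.04, 2.62 and 2.85 FPKM) and Sirt4 (2.98, 2.61 and 1.98) did.

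**Figure D2:**
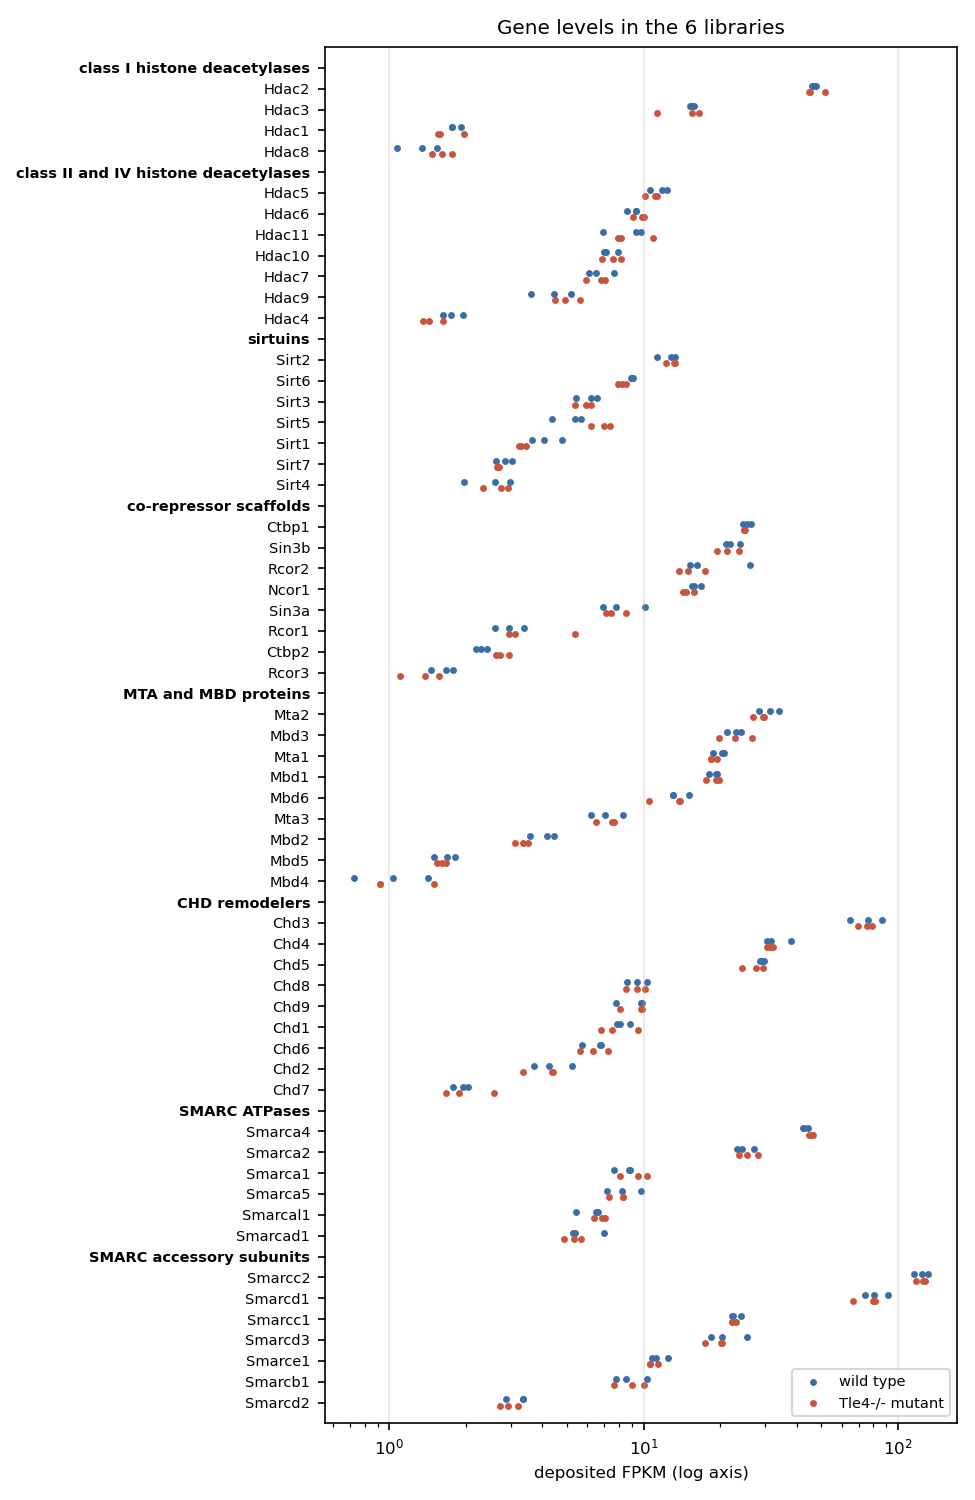
Deposited FPKM (x axis, log scale) of all but 1 of the 58 genes in each of the 6 libraries, by role and by level within a role, with 1 point per library. Wild-type (blue) and mutant (red) points of a gene mostly lie close together compared with the distance between Mbd4, at 1.06 FPKM, and Smarcc2, at 124 FPKM.

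Class I histone deacetylases are the nuclear, zinc-dependent enzymes of the repressor assemblies. Hdac1 and Hdac2 are interchangeable catalytic subunits of NuRD, SIN3 and CoREST, Hdac3 is the enzyme of NCoR assemblies, and Hdac8 acts on cohesin. None of the 4 passed the test, with 2 estimates above 0 and 2 below. Hdac2 led the group, at 47.6, 46.7 and 46.1 FPKM in the wild type and 51.7, 44.6 and 44.9 in the mutants. The mutant values spanned all the wild-type ones (log2 fold change 0.02, SE 0.09). Hdac3 had 15.2, 15.7 and 15.6 FPKM in the wild type and 11.3, 16.5 and 15.4 in the mutants. Its estimate of -0.09 (SE 0.14) rested on mutant replicate 1 and was 0.06 without that library. Hdac8, on the X chromosome, had 1.54, 1.35 and 1.08 FPKM in the wild type and 1.76, 1.48 and 1.62 in the mutants, with overlap (0.30, SE 0.20).

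Hdac1 was listed far below Hdac2, at 1.76, 1.77 and 1.92 FPKM in the wild type and 1.96, 1.56 and 1.58 in the mutants (-0.08, SE 0.18). The ratio of Hdac1 to Hdac2 FPKM within a library was 0.0388 ± 0.00249 in the wild type and 0.0360 ± 0.00172 in the mutants, ranges that overlapped (exact 2-sided permutation test, p = 0.2). Hdac1 (chromosome 4, 129516104 to 129542713) has a near-identical processed copy, an intronless gene copied from its mRNA, on chromosome 17 (78491565 to 78493541). The table lists that copy as Gm10093, which RefSeq names Hdac1-ps. The copy aligned to the Hdac1 transcript over 1444 bases at 99.4% identity. The 120 bases below come from exon 5 of an Hdac1 transcript on GRCm38, within its coding sequence, and from the copy. They were chosen to show bases that tell gene and copy apart, and are less alike than the alignment as a whole. Capitals mark the bases that differ.
Hdac1 (chr4:129522982-129523101, minus strand): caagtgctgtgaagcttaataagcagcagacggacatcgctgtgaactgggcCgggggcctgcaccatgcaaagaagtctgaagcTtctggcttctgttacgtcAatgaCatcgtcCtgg
Gm10093 (chr17:78491937-78492056, plus strand): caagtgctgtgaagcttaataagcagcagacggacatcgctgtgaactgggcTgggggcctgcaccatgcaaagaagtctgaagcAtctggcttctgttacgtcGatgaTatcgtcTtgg

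Counting from 1 at the 5′ end of the window, the differences from Hdac1 to its copy were C53T, T86A, A105G, C110T and C117T, and the first 52 bases were identical. Of all 50-base words of the Hdac1 gene's transcripts, 35.5% also occurred in another gene's transcripts, 31.7% in Gm10093. The deposited counts were 207, 225 and 210 on Hdac1 and 338, 423 and 308 on Gm10093 in the wild type. In the mutants they were 248, 175 and 180 on Hdac1 and 447, 349 and 386 on Gm10093. The copy thus held more counts than the gene in every library, 62.3% ± 2.92 of their sum in the wild type and 66.4% ± 1.95 in the mutants. How the authors' counting placed reads that fit both is not stated in what was used here, so the level of Hdac1 alone is uncertain. Summed over gene and copy, the level was 28.2 ± 0.744 CPM in the wild type and 29.8 ± 2.56 in the mutants. The log2 fold change of the sum was 0.08 (SE 0.12), against -0.08 for the Hdac1 row alone, and neither passed the test.

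Smarce1, a DNA-binding BAF subunit, and Smarca5, the ISWI ATPase, also have processed copies in the table, which are the 2 pseudogene rows. They are shown because the rule took these rows too. Over their whole length these copies are less like their genes than Gm10093 is like Hdac1. The windows come from exon 6 of a Smarce1 transcript and exon 3 of a Smarca5 transcript, within coding sequence, with differing bases in capitals.
Smarce1 (chr11:99219627-99219746, minus strand): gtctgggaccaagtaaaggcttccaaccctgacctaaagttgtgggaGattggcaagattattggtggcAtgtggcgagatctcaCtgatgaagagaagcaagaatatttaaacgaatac
Smarce1-ps1 (chr8:41658472-41658591, minus strand): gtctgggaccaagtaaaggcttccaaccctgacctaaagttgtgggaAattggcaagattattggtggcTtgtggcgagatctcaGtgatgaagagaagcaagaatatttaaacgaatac
Smarca5 (chr8:80733737-80733856, minus strand): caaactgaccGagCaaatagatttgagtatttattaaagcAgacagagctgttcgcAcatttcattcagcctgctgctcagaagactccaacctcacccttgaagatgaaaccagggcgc
Smarca5-ps (chr4:145464521-145464640, plus strand): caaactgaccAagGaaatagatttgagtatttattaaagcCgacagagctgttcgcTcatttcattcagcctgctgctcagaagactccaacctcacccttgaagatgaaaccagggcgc

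The differences were G48A, A70T and C86G for Smarce1 and G11A, C14G, A41C and A57T for Smarca5, read from gene to copy. Identity over the whole alignment was 98.3% of 1077 bases for Smarce1 and 98.1% of 3116 bases for Smarca5. Smarce1-ps1 held 17.9 to 20.7% of the summed counts of gene and copy over the 6 libraries, and Smarca5-ps held 1.47 to 3.98%. Summing the counts left the estimates at -0.06 for Smarce1 and -0.05 for Smarca5. These copies are not the only genes that share sequence with them. Of the 50-base words of Smarce1, 10.6% occurred in Gm8494 and 8.58% in Smarce1-ps1. Of those of Smarca5, 17.6% occurred in Gm13135 and 16.6% in Gm13034. Counts on Gm8494, Gm13135 and Gm13034 were not summed, so the levels of Smarce1 and Smarca5 stay uncertain. Of the 50-base words of the copies, 84.4% of those of Gm10093 occurred in other genes' transcripts, beside 64.6% for Smarce1-ps1 and 62.3% for Smarca5-ps. Gm10093 shared 80.4% with Hdac1. Smarce1-ps1 shared 55.9% with Smarce1 and 33.2% with Gm8494. Smarca5-ps shared 38.2% with Smarca5 and 45.9% with Gm13135. As separate rows, Smarce1-ps1 had a log2 fold change of -0.02 and Smarca5-ps one of 0.34 (SE 0.39), and neither passed the test.

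**Figure D3:**
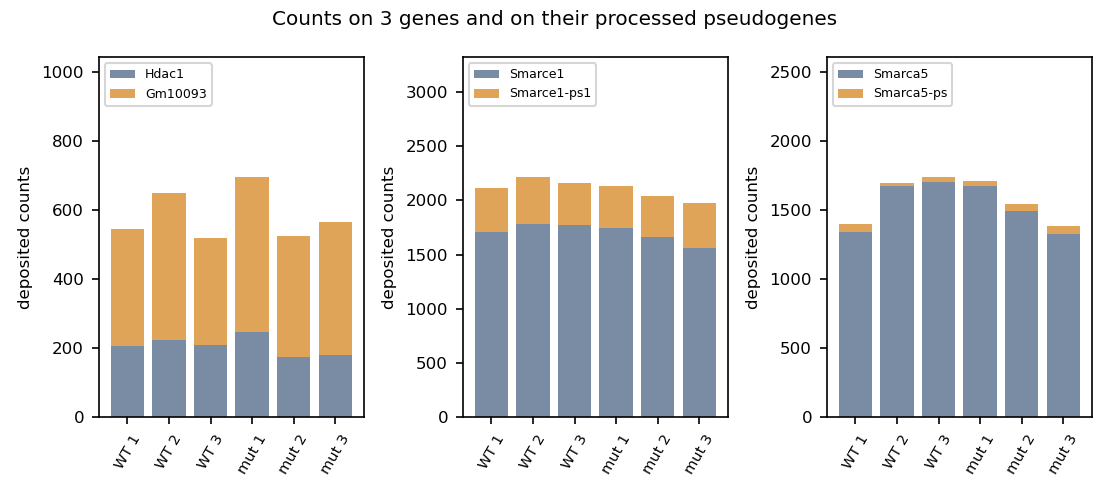
Deposited counts (y axis) on Hdac1, Smarce1 and Smarca5 (grey-blue) and on their processed copies (orange), stacked, in wild-type (WT) and mutant (mut) replicates 1 to 3. The copy of Hdac1 holds 59.5 to 68.2% of each bar, that of Smarce1 at most 20.7% and that of Smarca5 at most 3.98%.

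Class II deacetylases shuttle between cytoplasm and nucleus and bind MEF2 transcription factors or, as with Hdac6, act mainly on cytoplasmic tubulin, and Hdac11 is the only class IV enzyme. None of the 7 passed the test, with 4 estimates above 0 and 3 below. Hdac5 was the highest, at 11.6 ± 0.935 FPKM in the wild type and 10.8 ± 0.633 in the mutants. Hdac4 was the lowest by deposited FPKM, but with the exon lengths of the GENCODE M21 annotation Hdac9 (1.33 FPKM in the wild type) was below it (1.99). Hdac4 stood at 29.5, 33.4 and 30.9 CPM in the wild type and 24.1, 25.4 and 29.1 in the mutants. Every mutant value was below every wild-type one, but the difference did not pass the test (log2 fold change -0.26, SE 0.13, unadjusted p = 0.0763). Hdac9 (0.20, SE 0.17) and the X-linked Hdac6 (0.10, SE 0.10) overlapped between genotypes.

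Sirtuins are deacylases that use NAD. Sirt1, Sirt6 and Sirt7 act in the nucleus, Sirt2 in the cytoplasm and Sirt3, Sirt4 and Sirt5 in mitochondria. None of the 7 passed the test. The genotypes did not overlap for 3 of them, beside 7.93% of all genes. Sirt1 (chromosome 10, 63319005 to 63381704), a deacetylase of histones and transcription factors, stood at 39.2, 41.7 and 50.3 CPM in the wild type and 34.8, 36.3 and 34.5 in the mutants. Its log2 fold change was -0.31 (SE 0.13, unadjusted p = 0.0331), and -0.20 without wild-type replicate 3, the highest library. Sirt5 (chromosome 13, 43370710 to 43395202), which removes succinyl and malonyl groups, stood at 7.49, 7.54 and 5.97 CPM in the wild type and 9.59, 8.53 and 10.2 in the mutants.

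The Sirt5 log2 fold change, 0.43 (SE 0.19, unadjusted p = 0.0475), was the largest of the 58, on only 111 to 205 counts per library. Sirt6, a deacetylase tied to DNA repair, differed little in size but did not overlap. It had 38.5, 37.2 and 38.4 CPM in the wild type and 34.0, 34.9 and 36.4 in the mutants (-0.12, SE 0.11, unadjusted p = 0.301). By deposited FPKM, Sirt2 was the highest sirtuin, at 12.5 ± 1.03 FPKM in the wild type and 12.9 ± 0.617 in the mutants. Sirt4 was the lowest, at 2.52 ± 0.509 and 2.67 ± 0.301, but with GENCODE exon lengths Sirt5 (1.15) and Sirt3 (2.26) were below it (4.86). The remaining estimates, for Sirt2, Sirt3, Sirt4 and Sirt7, lay between -0.08 and 0.09.

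**Figure D4:**
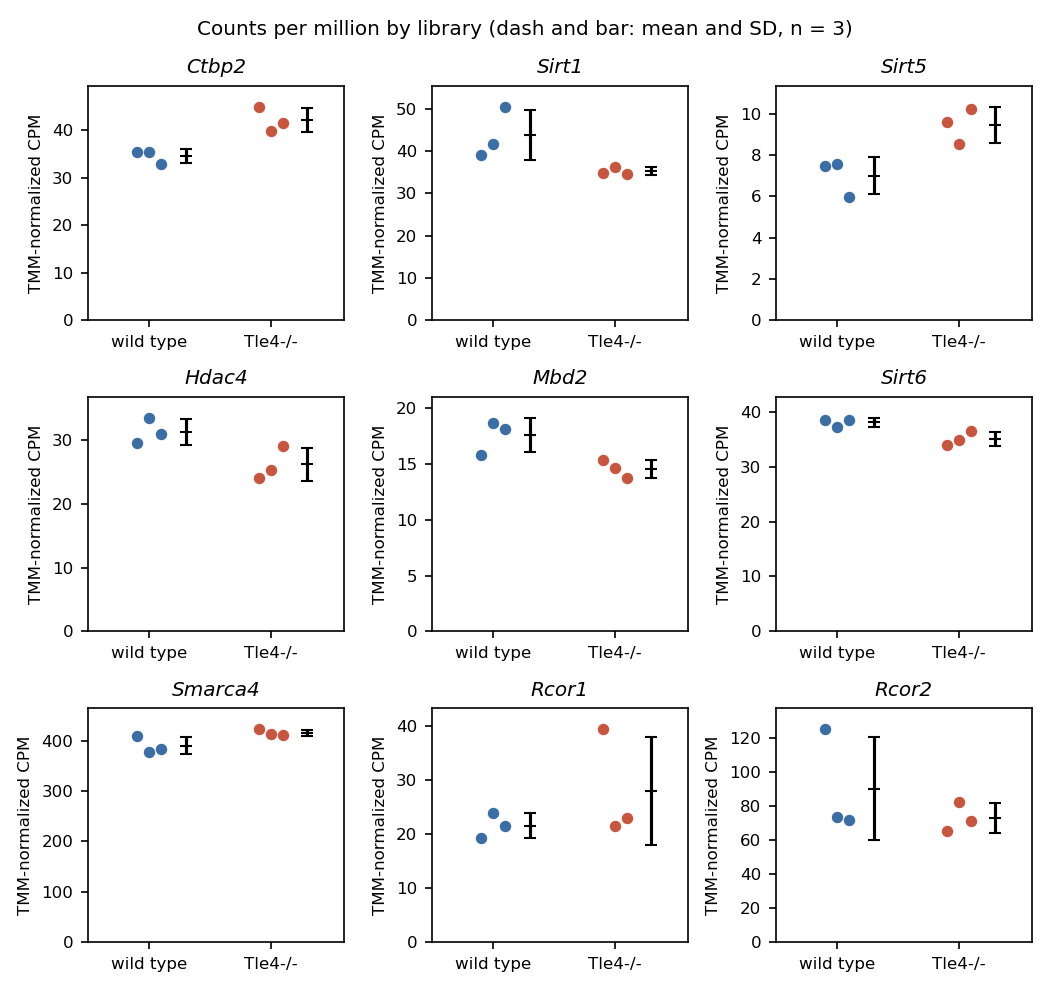
TMM-normalized CPM (y axes, from 0) in each wild-type (blue) and Tle4-/- (red) library for the 7 genes without overlap between genotypes and for Rcor1 and Rcor2, with dashes and bars for mean and SD (n = 3). The Ctbp2 points lie at 32.9 to 35.4 in the wild type and 39.8 to 44.8 in the mutants, while a single library stands apart for Rcor1 (39.4) and Rcor2 (125).

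Co-repressor scaffolds join DNA-bound factors to the enzymes. Ncor1 binds unliganded nuclear receptors and Hdac3, Sin3a and Sin3b anchor the SIN3 assembly, Rcor1 to Rcor3 link Hdac1 or Hdac2 to the demethylase Kdm1a, and CtBP proteins bind repressors with a short peptide motif. None of the 9 passed the test, with 2 estimates above 0 and 7 below (median -0.09). Ctbp2 had the smallest p of the 58 genes. It lies on chromosome 7, 132987563 to 133124354. Its levels were 35.4, 35.3 and 32.9 CPM in the wild type and 44.8, 39.8 and 41.5 in the mutants. Each mutant library stood above each wild-type one, with a log2 fold change of 0.28 (SE 0.11, unadjusted p = 0.0296) that ran from 0.24 to 0.32 as single libraries were left out.

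The related Ctbp1 was at 263 ± 13.0 CPM in the wild type and 259 ± 2.81 in the mutants (-0.02, SE 0.08). Within a library the ratio of Ctbp1 to Ctbp2 FPKM was 11.4, 10.5 and 11.3 in the wild type and 8.36, 9.41 and 9.19 in the mutants. These ranges did not overlap, which gives an exact permutation p of 0.1, the smallest that 3 against 3 allows, and 1 after adjustment over 12 gene pairs. Ctbp2 shares 135788 bases of its span with Fgfr2 on the same strand in the deposited coordinates. Fgfr2 had 384 to 622 counts per library, and whether reads in this stretch could be split between both was not tested.

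In each of the CoREST scaffolds the estimate was large beside the other members and moved as single libraries were left out. Rcor1 stood at 19.4, 24.0 and 21.5 CPM in the wild type and 39.4, 21.5 and 23.0 in the mutants. Mutant replicate 1 alone stood apart, and the log2 fold change of 0.37 (SE 0.23) was 0.04 without it. Rcor2, the most abundant of the 3 per length, stood at 125, 73.8 and 71.7 CPM in the wild type and 65.1, 82.4 and 70.9 in the mutants. Wild-type replicate 1 alone stood apart, and the estimate of -0.31 (SE 0.22) was 0.00 without it. Rcor3, the lowest scaffold at 1.64 ± 0.162 FPKM, had 40.0, 33.4 and 42.0 CPM in the wild type and 26.1, 32.5 and 37.3 in the mutants (-0.27, SE 0.16), and was -0.14 without mutant replicate 1.

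Ncor1 (-0.10, SE 0.09), Sin3a (-0.09, SE 0.15) and Sin3b (-0.04, SE 0.11) overlapped between genotypes. Ncor1 stood at 16.1 ± 0.695 FPKM in the wild type and 14.9 ± 0.770 in the mutants. The ratio of Sin3a to Sin3b was 0.370 ± 0.0491 in the wild type and 0.360 ± 0.00756 in the mutants (exact permutation p = 0.9).

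MTA proteins are the NuRD subunits that hold Hdac1 or Hdac2, and MBD proteins share a domain that in several members binds methylated DNA. Mbd2 and Mbd3 are alternative NuRD subunits, and Mbd4 is a DNA glycosylase. None of the 9 passed the test, with 4 estimates above 0 and 5 below. By deposited FPKM Mta2 was the highest, at 31.3, 28.4 and 33.9 FPKM in the wild type and 26.9, 29.5 and 29.8 in the mutants, with overlap (-0.11, SE 0.10). Mbd2 stood at 15.8, 18.7 and 18.2 CPM in the wild type and 15.3, 14.7 and 13.7 in the mutants. The genotypes did not overlap, by a gap between 15.8 and 15.3 CPM, and the difference did not pass the test (-0.27, SE 0.15, unadjusted p = 0.102). Mbd3 had 22.9 ± 1.42 FPKM in the wild type and 23.1 ± 3.46 in the mutants. With GENCODE exon lengths Mbd3 stood above Mta2, at 48.5 and 39.7 in the wild type. Mbd4, the lowest of the 58 genes by deposited FPKM, had 142 to 315 counts per library and the widest spread of the group, with an interval from -0.56 to 0.73.

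CHD remodelers are ATPases with paired chromodomains, which bind histone tails. Chd3, Chd4 and Chd5 are alternative NuRD ATPases, Chd5 being typical of neurons, and Chd7 and Chd8 are known from human neurodevelopmental disorders. The 9 estimates ran from -0.11 for Chd2 to 0.10 for Chd7, none passed the test and the genotypes overlapped for all 9. Their median absolute size, 0.05, was the smallest of the 8 groups. Chd3 led with 86.6, 76.5 and 64.5 FPKM in the wild type and 79.1, 69.4 and 75.8 in the mutants (-0.01, SE 0.12). Chd4 had 30.6, 31.5 and 38.1 FPKM and then 30.6, 31.4 and 32.1 in the mutants (-0.08, SE 0.10). Chd5 had 29.8, 28.5 and 29.1 FPKM and then 24.4, 27.6 and 29.6 (-0.09, SE 0.10). Each of the 3 NuRD ATPases was thus well expressed in newborn cortex, with Chd3 above Chd4 and Chd5 in every library.

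The ratio of Chd3 to Chd4 was 2.32 ± 0.576 in the wild type and 2.38 ± 0.190 in the mutants, and that of Chd5 to Chd4 0.882 ± 0.107 and 0.865 ± 0.0628 (exact permutation p = 0.9 for each). Chd8 stood at 219 ± 22.8 CPM in wild-type libraries and 219 ± 18.8 in mutant ones (-0.00, SE 0.11). Chd7 was the lowest CHD gene, at 1.92 ± 0.124 FPKM in the wild type and 2.05 ± 0.474 in the mutants.

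The SMARC ATPases are the motors of BAF (Smarca4 and Smarca2, alternatives within an assembly) and ISWI (Smarca5 and Smarca1), with Smarcad1 and Smarcal1 as more distant relatives that act at replication and repair. None of the 6 passed the test. Smarca4 (chromosome 9, 21616169 to 21704230) stood at 409, 378 and 383 CPM in the wild type and 422, 414 and 411 in the mutants. The mutant libraries all stood above the wild-type ones, by a small amount (log2 fold change 0.09, SE 0.08, unadjusted p = 0.269). The ratio of Smarca2 to Smarca4 FPKM was 0.579 ± 0.0327 in the wild type and 0.565 ± 0.0541 in the mutants (exact permutation p = 0.7). Smarca1, on the X chromosome, had 7.64, 8.87 and 8.77 FPKM in the wild type and 10.3, 8.07 and 9.50 in the mutants (0.15, SE 0.12). Its ratio to Smarca5 was 1.01 ± 0.101 and 1.17 ± 0.175 (exact permutation p = 0.3). Smarcal1 had an estimate of 0.15 (SE 0.12). Smarcad1, the lowest of the group at 5.88 ± 0.954 FPKM, had one of -0.14 (SE 0.13), which was 0.00 without wild-type replicate 3.

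The SMARC accessory subunits are the core and variable parts of BAF. Smarcc1 and Smarcc2 form its scaffold, Smarcd1 to Smarcd3 are alternative subunits, of which Smarcd3 is found mainly in neurons in the brain, and Smarcb1 grips the nucleosome. None of the 7 passed the test, with 2 estimates above 0 and 5 below, and all 7 overlapped between genotypes. Smarcc2 (chromosome 10, 128459236 to 128490173) was the most abundant of all 58 genes, at 131, 116 and 125 FPKM in the wild type and 118, 126 and 128 in the mutants (0.01, SE 0.09). Smarcc1 had 22.5, 22.2 and 24.1 FPKM and then 22.2, 23.1 and 22.2. The ratio of Smarcc2 to Smarcc1 was 5.41 ± 0.373 in the wild type and 5.50 ± 0.219 in the mutants (exact permutation p = 0.6).

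Smarcd1 had 91.2, 74.3 and 80.8 FPKM in the wild type and 66.7, 80.8 and 79.8 in the mutants (-0.11, SE 0.12). Smarcd3 had 25.5, 20.3 and 18.4 FPKM and then 17.4, 20.2 and 20.2 (-0.14, SE 0.14), an estimate that was 0.02 without wild-type replicate 1. The ratio of Smarcd3 to Smarcd1 was 0.260 ± 0.0282 in the wild type and 0.255 ± 0.00566 in the mutants (exact permutation p = 0.9). Of the 50-base words of Smarcd3, 44.0% also occurred in Chpf2, whose span shares 3739 bases with it on the other strand. Smarcd2 was the lowest subunit, at 3.20 ± 0.269 FPKM in the wild type and 2.96 ± 0.243 in the mutants (-0.10, SE 0.14).

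**Figure D5:**
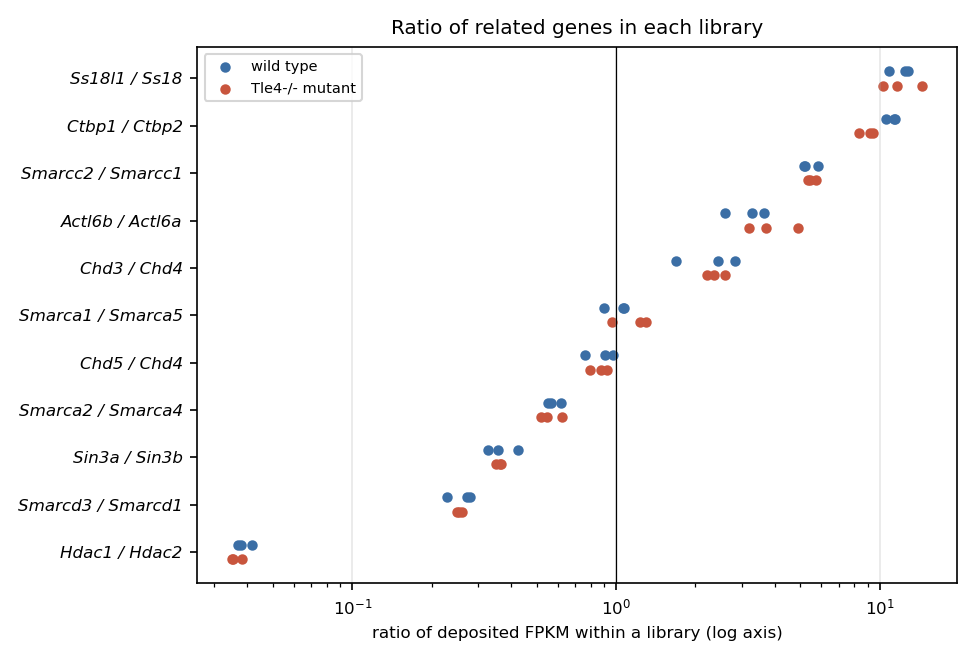
Ratio of deposited FPKM of related genes within each library (x axis, log scale), with 1 point per wild-type (blue) and mutant (red) library for all but 1 of the 12 gene pairs. Ratios run from 0.0388 for Hdac1 to Hdac2 up to 12.02 for Ss18l1 to Ss18 in the wild type, and the genotypes do not overlap only for Ctbp1 to Ctbp2.

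The other proteins of these assemblies were taken from 7 lists with 59 genes in the table. None passed the test at an adjusted p of 0.05, and 3 of 59 (5.08%) had an unadjusted edgeR p under 0.05, beside 3.45% of all genes. These were Actb, Tle2 and Gse1. The log2 fold change was above 0 for 21 and below 0 for 38 (median -0.04), and 51.3% of all genes were below 0. The genotypes did not overlap for 3 genes (5.08%), a share below the 7.93% of all genes. These 3 were higher in the mutant, as were 4.18% of all genes. Actb, the actin that is also a BAF subunit, was at 1390 ± 113 CPM in the wild type and 1704 ± 119 in the mutants (0.29, SE 0.09, unadjusted p = 0.0104). Brd7, a PBAF subunit, was at 70.0 ± 3.97 and 78.1 ± 3.31 CPM (0.16, SE 0.10).

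Sap18, a SIN3-associated protein, gave the least stable value. Its CPM were 20.3, 1.26 and 2.74 for wild-type libraries and 23.5, 20.98 and 23.4 for mutants, so that wild-type replicates 2 and 3 stood apart from the other 4 libraries. Its log2 fold change was 1.48 (SE 1.04), and 3.51 with an edgeR adjusted p of 0.00674 when wild-type replicate 1 was left out.

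Among the Groucho genes, Tle2 was at 35.7 ± 7.23 CPM in the wild type and 48.2 ± 8.02 in the mutants (0.43, SE 0.17, unadjusted p = 0.0326), and the libraries overlapped. Tle3 (0.13) and Aes (0.11) had smaller estimates. In the CoREST list, Gse1 was at 190 ± 22.4 and 155 ± 17.6 CPM (-0.30, SE 0.12, unadjusted p = 0.0358), with Phf21a at 0.15 and Hmg20b at 0.19. The 4 NCoR partners all had estimates below 0, from -0.18 (Gps2) to -0.07, with Tbl1x at -0.13 and Zbtb33 at -0.09. Of the 18 BAF and PBAF partners, 14 were below 0, among them the DNA-binding subunit Arid1a (-0.28, SE 0.15). NuRD partners included Cdk2ap1 (-0.44, SE 0.31), which was -0.02 without wild-type replicate 1, Gatad2b (-0.25, SE 0.17) and the histone chaperone Rbbp4 (-0.07, SE 0.09). Baz2b (-0.21), Baz2a (-0.18) and Rsf1 (-0.14) had the smallest p of the ISWI partners, and Ing1 (-0.21) and Sap30l (-0.16) followed Sap18 among the SIN3 partners.

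Some BAF partners also come in progenitor and neuronal forms. The ratio of the neuronal Actl6b to Actl6a was 3.29, 3.63 and 2.59 in the wild type and 4.88, 3.18 and 3.71 in the mutants, which overlapped (exact permutation p = 0.4). The ratio of the neuronal Ss18l1 to Ss18 was 12.02 ± 1.04 in the wild type and 12.1 ± 2.18 in the mutants (exact permutation p = 1). Summed levels of radial glia and interneuron markers are given above, and their part in these ratios was not tested. In every library of either genotype the form typical of neurons was the more abundant of these 2 pairs. Smarcd3, found mainly in neurons, went the other way, with a ratio to Smarcd1 of 0.260 ± 0.0282 in the wild type and 0.255 ± 0.00566 in the mutants.

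The 3 X-linked members, Hdac6, Hdac8 and Smarca1, all had estimates above 0 (median 0.15), beside 21 of the 55 autosomal ones (38.2%). Of the 568 X-linked genes tested, 53.5% had an estimate above 0, with a median of 0.01. Over autosomal genes the share was 48.5%. Which part the difference in Xist has in these 3 values was not tested.

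Levels between genes depend on the gene length that the authors used. Dividing the counts by the deposited FPKM and the library total gave a length for each gene. It lay within 0.01% of a whole number for 96.2% of all rows. In long genes any value meets that tolerance, so this share is no check of the lengths. In 50 of the 60 rows the length obtained in this way exceeded the total exon length in GENCODE M21, with a median ratio of 1.40. The ratio ran from 0.224 for Sirt5 (1367 against 6093 bases) to 2.42 for Ctbp2 (15061 against 6220 bases). With GENCODE lengths, 9 of the 10 highest genes stayed among the 10 highest, but lower ranks changed. Sirt5 (1.15 FPKM), Hdac9 (1.33) and Hdac8 (1.58) were then the lowest of the 58 genes, below Mbd4 (1.96). Mbd1 was at 7.58 and Chd9 at 4.65. The ratio of Sin3a to Sin3b was then 0.908 in place of 0.370, and that of Hdac1 to Hdac2 was 0.0520 in place of 0.0388. A difference between genotypes in 1 gene does not depend on its length. Of the 60 rows, 25 overlap another row of the table in their coordinates. Of the 58 genes, 36 share under 1% of their 50-base words with other genes, and 9 share at least 10%. Among these 9 are Chd2, and also Hdac4 and Sirt5, whose libraries did not overlap between genotypes. What reads from shared sequence contribute to the differences of these genes was not tested.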

How the data were processed

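RNA of 6 cortex libraries was read from 1 table deposited by the authors. Upstream steps used HISAT2 2.0.4, StringTie and edgeR on builds listed as mm10 and GRCm38.p4, per the submitters' processing notes. No source used here names the counting program, its use of strand or the annotation release. According to the headings of its columns, the deposited table holds a whole-number count, an FPKM value and the authors' p-value and adjusted p-value for each gene. In 25 rows a date-like symbol was restored from the gene ID. All 60 rows are in GENCODE M21 (GRCm38), and coordinates are those of the table.

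Counts were tested with edgeR 4.0.16 in R 4.3.3 (filterByExpr, TMM, robust quasi-likelihood, 2-sided, Benjamini-Hochberg over 16274 genes, threshold 0.05). An SE was taken as the size of the log2 fold change divided by the root of the F statistic. Intervals use the t quantile of the fit. Replicate levels are mean ± SD over 3 libraries. Only the edgeR fit was tried on simulated counts, with changes of 2-fold or more, which are larger than any estimated for the 58 genes. Ratios of related genes were compared on log2(FPKM + 0.1) by an exact permutation test. Coding windows of genes and copies were read from the GRCm38 transcripts and annotation of GENCODE M21, and shared sequence was counted as 50-base words on either strand.

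Members, role lists and partner lists were chosen with earlier results of these data known. The genes named are, per role, the highest, the lowest and the 3 with the smallest p, then the 10 smallest p over all, every gene without overlap, the gene pairs, and up to 3 per partner list. Mbd3, Chd8, Hdac11, Sirt3, Sirt7 and Smarcb1 are named for their role, chosen after their values were seen. The values of 1 member and its gene pair enter the counts and medians but are not reported here. Alternatives were DESeq2 1.42.0 (size factors, Wald test), limma 3.58.1 (voom, and log2 FPKM), 2 filters, a replicate block, each library left out, and no sex-linked or mitochondrial genes. Summing copies and using GENCODE lengths were chosen after seeing the data.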

Additional observations from a re-analysis of the deposited data

How the results depend on the processing

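No member gene was called in any of the 15 alternative fits planned or with copies summed, and the smallest adjusted p was 0.954, without wild-type replicate 1. The members' median log2 fold change ran from -0.07 to -0.00 as single libraries were left out. The count at an unadjusted p under 0.05 was 3, but 0 with a replicate block, 1 in limma on log2(FPKM + 0.1), and 0 to 2 with a library left out (0 without wild-type replicate 2 or 3 or mutant replicate 1). Over all genes, 8 were called higher and 10 lower. The DESeq2 Wald test called 21 and 37, the replicate block 5 and 4, the fit without mitochondrial genes 4 higher, limma on FPKM 5 higher, and leaving out a library 4 to 8 higher and 4 to 12 lower. Same-numbered samples did not deviate together (correlations -0.06, 0.10 and -0.02), so the block was not used. Companion genes called ran from 0 to 1 (Sap18) and the companions' median log2 fold change from -0.062 to 0.012 as libraries were left out.

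Where an estimate exceeded its SE, its direction turned for Smarcd3 and Rcor2 without wild-type replicate 1, and for Smarcad1 without wild-type replicate 3. The log2 fold change with a library left out ran from -0.237 to 0.0237 for Smarcd3, from -0.445 to 0.00135 for Rcor2 and from -0.218 to 0.00159 for Smarcad1. With GENCODE lengths the wild-type ratio was 0.0520 for Hdac1 to Hdac2, 0.908 for Sin3a to Sin3b, 0.356 for Smarca2 to Smarca4, 1.23 for Smarca1 to Smarca5, 4.28 for Smarcc2 to Smarcc1, 0.468 for Smarcd3 to Smarcd1 and 18.0 for Ss18l1 to Ss18. Those shifts follow from the lengths, and the cause of the others was not tested. Counting error limits Sirt5 and Hdac8 most among the 58 genes, at 111 to 219 counts per library.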
